A study of Mus musculus with 4 samples.

Results

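Public clonotypes of the T cell receptor β chain (TRB), meaning receptors listed in every library of the study, numbered 1564 of the 186302 clonotypes listed in any library (0.839%). A clonotype was an in-frame amino acid sequence of the third complementarity-determining region (CDR3) together with its V and J segment. A public clonotype was one listed in all 4 libraries, whatever its count. A further 4795 clonotypes (2.57%) were listed in 3 libraries, 22011 (11.8%) in 2 and 157932 (84.8%) in 1. Because the number of libraries chose the members, that number is given as a description and supports nothing else.

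The libraries came from CD8+ T cells sorted from livers of mice carrying MC38 metastases, MC38 being a tumour cell line that the labels call a melanoma. There were 2 libraries from wild-type mice and 2 from Vsig4-deficient mice (labelled VSIG4 KO), all taken at day 14 after the tumour cells were given. Vsig4 encodes a macrophage complement receptor, and all groups carried the tumour, so no tumour-free mice enter any comparison here. Nothing in the labels tells whether each library stands for its own animal, so every p-value measures the spread between these libraries, which may be technical. Neither the CD8 identity nor the loss of Vsig4 could be checked, because the tables list TRB rearrangements alone. Wild-type 1 and 2 held 875201 and 857452 in-frame counts; Vsig4-deficient 1 and 2 held 958198 and 1227914. Public clonotypes made up 3.49% of the 44774 clonotypes of wild-type 1, then 2.29% of the 68160 of wild-type 2. They made up 3.52% of the 44373 of Vsig4-deficient 1 and 2.40% of the 65288 of Vsig4-deficient 2.

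A TRB chain is assembled in the thymus by joining a V, a D and a J segment, with bases trimmed from the segment ends and non-templated bases inserted by terminal deoxynucleotidyl transferase. The joined stretch encodes the CDR3, the loop that contacts peptide in the groove of a major histocompatibility complex molecule. Because the genetic code is redundant, separate rearrangements can encode the same CDR3, which is called convergent recombination, and receptors close to the germline segments are known to recur between individuals.

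The nucleotide sequences show the forms that sharing took among public clonotypes. In each, capitals mark inserted bases, those that the deposited positions assign to none of the V, D and J segments; where no D segment was assigned, the whole stretch between V and J is in capitals. A public clonotype of 15 amino acids with TRBV13-2 and TRBJ2-3 was encoded by 20 nucleotide sequences, the second most of any member. It is called the 20-sequence member here, and these 3 of its sequences were each listed in all 4 libraries.
20-sequence member, sequence 1: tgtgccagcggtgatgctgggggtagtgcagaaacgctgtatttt
20-sequence member, sequence 2: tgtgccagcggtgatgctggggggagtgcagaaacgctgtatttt
20-sequence member, sequence 3: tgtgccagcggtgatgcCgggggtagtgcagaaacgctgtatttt
Sequence 1 had 156 and 196 counts in wild-type 1 and 2, then 61 counts in Vsig4-deficient 1 and 37 in Vsig4-deficient 2. Sequence 2 had 30, 279, 8 and 51 counts in the same order. Sequence 3, with 1 inserted base, had 82, 28, 10 and 60 counts. The first pair holds no inserted base at all, so every letter of both was assigned to a segment.

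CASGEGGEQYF (TRBV13-2, TRBJ2-7) shows the opposite form, chosen after its values were seen: it was public, but no nucleotide sequence of it was listed in more than 1 library. These 4 sequences were the most abundant one of each library.
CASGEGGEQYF in wild-type 1: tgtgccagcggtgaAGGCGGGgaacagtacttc
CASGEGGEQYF in wild-type 2: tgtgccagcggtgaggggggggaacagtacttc
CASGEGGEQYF in Vsig4-deficient 1: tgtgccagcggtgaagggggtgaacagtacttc
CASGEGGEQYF in Vsig4-deficient 2: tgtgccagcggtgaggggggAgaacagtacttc
They had 39, 23, 96 and 12 counts, each in its own library.

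A further form was a single nucleotide sequence in all 4 libraries. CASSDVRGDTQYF (TRBV13-3, TRBJ2-5) and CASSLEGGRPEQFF (TRBV3, TRBJ2-1) carried 1 inserted base each, and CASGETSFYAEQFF (TRBV13-2, TRBJ2-1), chosen after its values were seen, carried 12.
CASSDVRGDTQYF: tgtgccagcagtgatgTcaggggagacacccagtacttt
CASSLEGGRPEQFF: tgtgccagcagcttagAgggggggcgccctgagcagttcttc
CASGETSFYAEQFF: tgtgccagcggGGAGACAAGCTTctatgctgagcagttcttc
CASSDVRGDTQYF had 418 counts in wild-type 1, 402 in wild-type 2, 279 in Vsig4-deficient 1 and 1523 in Vsig4-deficient 2. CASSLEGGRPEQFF had 611, 186, 274 and 1220 counts in the same order. Both were well represented everywhere, with the highest share 4.26 and 4.58 times the lowest. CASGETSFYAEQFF had 160, 1085, 90 and 399 counts in the same order. No D segment was assigned to it, so all 12 bases between V and J are in capitals.

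The last form was a public clonotype with nearly all of its counts in 1 library. These sequences are the ones listed in all 4 libraries for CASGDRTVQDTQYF and for a member of 17 amino acids, both with TRBV13-2 and TRBJ2-5.
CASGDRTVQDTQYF: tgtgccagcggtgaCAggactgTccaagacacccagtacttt
Member of 17 amino acids: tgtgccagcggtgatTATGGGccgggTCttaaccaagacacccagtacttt
The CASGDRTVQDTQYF sequence had 10 counts in wild-type 1, 11 in wild-type 2, 52404 in Vsig4-deficient 1 and 1110 in Vsig4-deficient 2. The sequence of the longer member had 2, 1, 70 and 47928 counts in the same order. Presence in all 4 libraries therefore covered both evenly listed receptors and receptors with 1 or 2 counts beside a large clone elsewhere.

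Public clonotypes carried fewer inserted bases than clonotypes listed in 1 library, in each of the 4 libraries. Averaged over a clonotype's nucleotide sequences, they had 1.89 inserted bases in wild-type 1, 1.94 in wild-type 2, 1.93 in Vsig4-deficient 1 and 1.95 in Vsig4-deficient 2. The clonotypes of 1 library had 3.599, 3.59, 3.66 and 3.61 inserted bases in the same order. The mean over libraries was 1.93 ± 0.0272 against 3.61 ± 0.0329, a difference of -1.69 ± 0.0393 (SD, n = 4). The ranges of the 2 classes did not overlap, and the spread between libraries was small beside the difference. This is given with no test, since the same libraries defined the classes. Clonotypes of 3 libraries, just outside the rule, had between 2.15 and 2.24 inserted bases.

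The share of clonotypes with at least 1 sequence free of inserted bases in a library followed the same order. It was 36.2% ± 1.41 of public clonotypes and 8.42% ± 0.243 of 1-library clonotypes (SD, n = 4). Public clonotypes had more sequences in a library (1.66 against 1.03 on average), which favours them in this share. Counted over distinct nucleotide sequences, 25.6% of the 6498 sequences of public clonotypes and 8.41% of the 162035 sequences of 1-library clonotypes had none. The whole stretch between the V and J segments, which does not depend on the D assignment, was 7.14 bases in public and 10.04 in 1-library clonotypes. Net trimming, with palindromic bases counted as negative, was lower at the V end (1.40 against 2.46 bases) and at the J end (2.35 against 2.62 bases). Public clonotypes held 5.22 D-segment bases against 6.42, where a sequence without an assigned D segment counted as having none. Such sequences were more frequent in public clonotypes, so these means do not give the length of the assigned D stretches. TRBD1 was assigned in 31.9% against 46.2%, TRBD2 in 34.0% against 32.0%, and no D segment in 34.1% against 21.7%. The D assignment and the inserted bases are read from the same stretch, so they are not separate measurements.

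**Figure D1:**
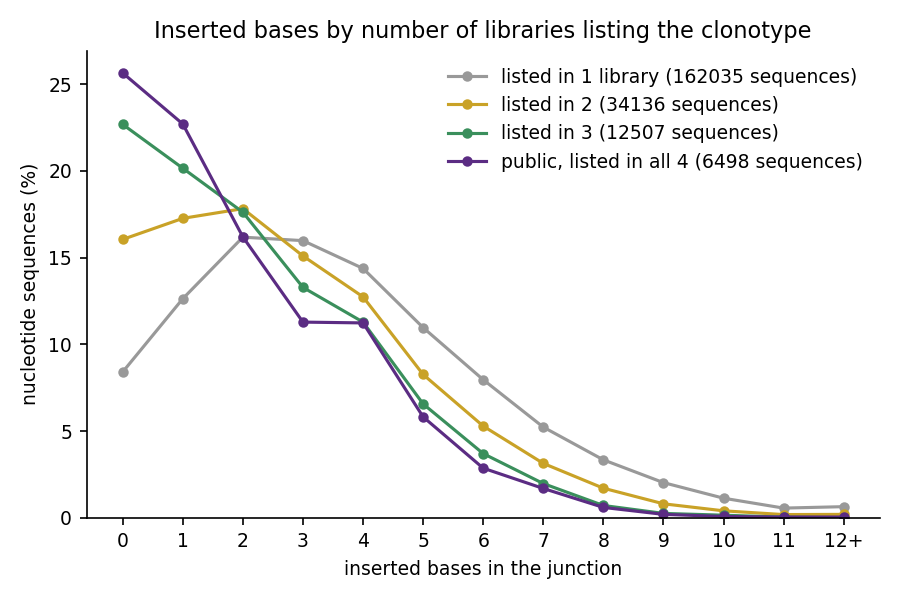
Distribution of inserted bases (x axis) over distinct CDR3 nucleotide sequences as a percentage of each class (y axis), for public clonotypes and for clonotypes listed in 1, 2 and 3 libraries. The public class peaks at 0 inserted bases with 25.6% of its sequences, where the 1-library class has 8.41%.

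Public clonotypes were also more abundant within a library, so the difference was set out at matched counts. Among clonotypes with 10 to 99 counts in wild-type 1, the 836 public ones had 1.82 inserted bases and the 12773 of 1 library had 3.56. In wild-type 2 the same band gave 1.87 inserted bases in 973 public clonotypes and 3.48 in 15615 of 1 library. Vsig4-deficient 1 gave 1.85 against 3.56 and Vsig4-deficient 2 gave 1.805 against 3.46 in that band. At 100 or more counts the values were 1.71 in 184 public and 3.29 in 348 clonotypes of 1 library in wild-type 1, and 1.95 in 99 and 4.15 in 42 in Vsig4-deficient 1. They were 2.18 in 179 and 3.34 in 556 in Vsig4-deficient 2. In wild-type 2 they were 2.22 in 140 and 2.53 in 57, the narrowest difference of the 8. Public clonotypes had fewer inserted bases in both bands of all 4 libraries.

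Public CDR3s were shorter. Their mean length was 13.38 amino acids, against 14.06 ± 0.0166 (SD, n = 4) for 1-library clonotypes, a difference of -0.676. Members ran from 8 to 18 amino acids. Lengths of 12 to 14 amino acids made up 69.5% of public and 56.3% of 1-library clonotypes, lengths of 11 or fewer 10.9% and 4.85%, and lengths of 17 or more 0.448% and 3.64%. Residue use was read after 4 residues were taken from each side. Aspartate made up 12.96% of the remaining public residues against 9.20%, glycine 23.9% against 21.4% and tyrosine 5.90% against 4.39%. Arginine fell on the other side (4.37% against 6.23%), as did threonine (5.02% against 6.76%) and histidine (0.238% against 0.854%). No public clonotype held a cysteine there, where 0.0448% of the residues of 1-library clonotypes were cysteine. In a library, 0.249% to 0.299% of 1-library clonotypes held one, so only a few members would hold one at that rate. The cut does not remove every residue that the V and J segments encode, and use of those segments differed between the classes. The part of V and J use in the residue differences was not tested.

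Sequence neighbours were common around public clonotypes. A neighbour was a clonotype of the same library, V and J segment whose CDR3 differed by 1 substitution. Public clonotypes had 5.00 neighbours on average in wild-type 1, 7.05 in wild-type 2, 5.01 in Vsig4-deficient 1 and 6.89 in Vsig4-deficient 2, where 1-library clonotypes had between 0.745 and 1.13. At least 1 neighbour was found for 89.6% to 93.0% of public and 40.3% to 49.4% of 1-library clonotypes. The 2 libraries with more clonotypes, wild-type 2 and Vsig4-deficient 2, had the higher values in both classes. Public clonotypes also had more counts, other V and J use and shorter CDR3s. Neighbours were not compared at matched counts, V and J combinations or lengths, or after near-identical sequences were joined. The 1564 members held 1445 distinct CDR3s, of which 93 occurred with more than 1 V and J combination. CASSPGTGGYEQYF, chosen after its values were seen, was public with 5 V segments (TRBV12-1, TRBV12-2, TRBV26, TRBV29 and TRBV3).

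Several nucleotide sequences encoded most public clonotypes. Over the 4 libraries a member had 4.15 nucleotide sequences on average, with a median of 4 and a highest value of 23, and 1375 of 1564 had more than 1. Within a library the mean was 1.53 in wild-type 1, 1.84 in wild-type 2, 1.52 in Vsig4-deficient 1 and 1.77 in Vsig4-deficient 2, against 1.02 to 1.03 for 1-library clonotypes. The share with more than 1 sequence inside a library was 33.6%, 45.9%, 32.9% and 43.4% for public clonotypes and 2.30%, 2.91%, 1.93% and 2.44% for 1-library clonotypes. In the band of 10 to 99 counts of wild-type 1, the means were 1.57 and 1.04 sequences. The number of sequences summed over 4 libraries can only be compared within the public class, because a clonotype of 1 library was seen once.

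The members with the most nucleotide sequences were mostly TRBV13-2 receptors. A member of 15 amino acids with TRBV13-2 and TRBJ2-3 had 23 sequences and 434, 244, 105 and 155 counts in wild-type 1, wild-type 2, Vsig4-deficient 1 and Vsig4-deficient 2. The 20-sequence member followed with 492, 745, 164 and 289 counts. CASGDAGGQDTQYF and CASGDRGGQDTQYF, both TRBV13-2 with TRBJ2-5, had 17 each, with 534, 310, 262 and 129 counts and 146, 375, 108 and 40 counts. All 4 used TRBV13-2, and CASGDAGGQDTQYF and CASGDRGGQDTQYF differ by a single residue. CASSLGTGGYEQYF (TRBV12-1, TRBJ2-7) had 16 sequences and 39, 16, 96 and 75 counts. The 4 TRBV13-2 members had more counts in wild-type 2 than in Vsig4-deficient 2, and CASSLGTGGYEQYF had fewer, so no order of libraries held for all 5.

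An identical nucleotide sequence in all 4 libraries was found for 402 of 1564 public clonotypes (25.7%, 95% Wilson interval 23.6% to 27.9%, which covers counting error only). The most widely listed sequence was in 3 libraries for 485 members, in 2 for 577 and in 1 for 100 (6.39%). Those 100 were public as protein sequences while no nucleotide sequence of theirs was listed in more than 1 library. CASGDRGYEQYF, chosen after its values were seen, was another of them, with 10 nucleotide sequences and 177, 50, 43 and 21 counts. The most abundant sequence of a member was the same in all 4 libraries for 269 members (17.2%) and different in each library for 328 (21.0%).

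Inserted bases differed between these forms. Here and for the unequal members below, each member's value is the mean over its distinct sequences of all 4 libraries together, which gave 2.06 ± 1.72 over all 1564 members (SD over members) where the mean by library was 1.93. Members encoded by a single nucleotide sequence, 189 in all, had 3.11 ± 2.79 inserted bases (SD over members), close in size to the mean of 1-library clonotypes. Members with 2 or 3 sequences (523) had 1.96, with 4 to 6 (634) 1.86, and with 7 or more (218) 1.94. Members with an identical sequence in all 4 libraries had 2.51 ± 2.31 inserted bases, and the 485 whose widest sequence was in 3 libraries had 1.75 ± 1.502. Sequence by sequence, the 4032 nucleotide sequences of members that were listed in 1 library had 2.11 inserted bases, the 1435 in 2 had 1.73, the 612 in 3 had 1.25, and the 419 in 4 had 2.21. The order from 1 to 3 libraries was downward, and the sequences of 4 libraries stood above it.

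**Figure D2:**
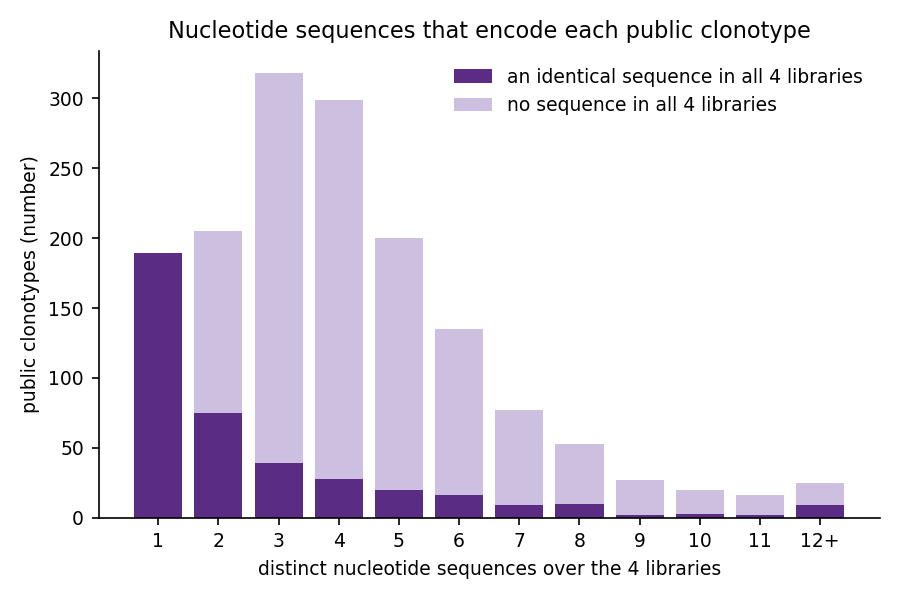
Number of public clonotypes (y axis) by the number of distinct nucleotide sequences that encoded them over the 4 libraries (x axis), divided into members with and without a nucleotide sequence listed in all 4. The 189 members at 1 sequence all belong to the former, and the median lies at 4 sequences.

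Members listed at very unequal levels were more often of the single-sequence form. In 88 members (5.63%), 1 library held over 90% of the summed shares of counts; 46.6% of these had a single nucleotide sequence, 64.8% had an identical sequence in all 4 libraries, and they carried 2.99 inserted bases on average. In the 644 members where no library held over 50%, the values were 8.70%, 24.2% and 1.92 inserted bases. The 88 held 27.1% of the in-frame counts of Vsig4-deficient 1, and 8.34%, 6.14% and 8.25% of those of wild-type 1, wild-type 2 and Vsig4-deficient 2. An entry, meaning a nucleotide sequence in a library, was next left out where its share was under 1% of the same sequence's share in another library. This left 1476 of all 1564 members public. At a limit of 5%, 1233 remained, 94 of the 189 with a single sequence (49.7%) and 1139 of the 1375 with several (82.8%). The limit can remove only sequences listed in more than 1 library. Members with different sequences in different libraries are less exposed to it, so part of this contrast is built in.

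Public clonotypes that were large in 1 library were mostly at low levels in the others. That they were listed there follows from the rule, and large clones that were not public are not counted here. Among the 50 largest clonotypes of Vsig4-deficient 1, 20 were public, and their share in Vsig4-deficient 2 had a median of 1.90% of that in Vsig4-deficient 1 (lowest 1.27%, highest 19.4%). In the wild-type libraries the medians were 0.0543% and 0.0594%. A public clonotype of 16 amino acids with TRBV1 and TRBJ2-1 had 11 counts in wild-type 1, 12 in wild-type 2, 41134 in Vsig4-deficient 1 and 779 in Vsig4-deficient 2. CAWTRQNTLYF (TRBV31, TRBJ2-4) had 12, 18, 34462 and 831 counts, and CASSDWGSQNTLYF (TRBV13-3, TRBJ2-4) had 10, 197, 29895 and 734 counts, in the same order. All 30 public clonotypes among the 50 largest of wild-type 2 had an identical nucleotide sequence in all 4 libraries, and their median share in wild-type 1 was 1.05% of that in wild-type 2. Fewer had one elsewhere: 8 of 17 in wild-type 1, 13 of 20 in Vsig4-deficient 1 and 9 of 13 in Vsig4-deficient 2. Transfer of material or reads between libraries was not tested, and the identical sequences at a low share cannot be told apart from the same rearrangement arising or persisting in several libraries.

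**Figure D3:**
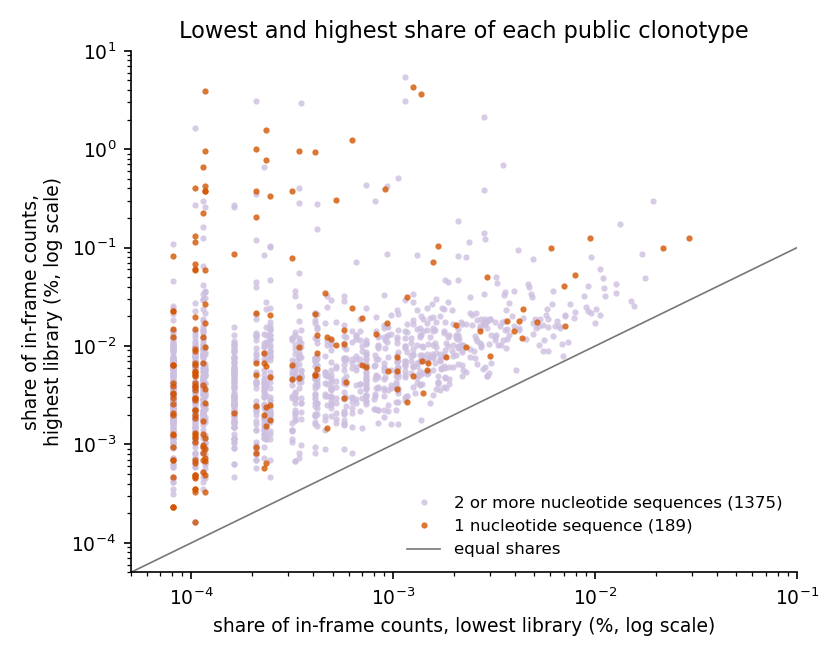
Each point is a public clonotype, placed by its share of in-frame counts in the library where it was lowest (x axis, percent, log scale) and where it was highest (y axis, percent, log scale), with the 189 single-sequence members in orange. Of the 1564 members, 136 members had a highest share at least 100 times the lowest.

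V segment use of public clonotypes differed from that of 1-library clonotypes. TRBV13-2 (chromosome 6, 41121396 to 41121832, GRCm38.p6) was used by 394 members, 25.2%, against 9.88%, 9.79%, 9.22% and 12.2% of the 1-library clonotypes of wild-type 1, wild-type 2, Vsig4-deficient 1 and Vsig4-deficient 2. The mean of those was 10.3% ± 1.32 (SD, n = 4), so the public share was 2.45 times it and outside the range of the libraries. TRBV12-2 (41118864 to 41119364) was used by 11.1% against 7.39% ± 0.443. TRBV12-1 (41113567 to 41114067) was used by 11.3% against 8.52%, and TRBV1 (40891296 to 40891885) by 9.53% against 6.26%. TRBV12 and TRBV13 segments have close relatives in the cluster, and the first listed segment was taken where several were.

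Other V segments were scarce among public clonotypes. TRBV4 (41059443 to 41059886 of chromosome 6) was used by 13 members, 0.831%, against 4.80% ± 0.593 of 1-library clonotypes (SD, n = 4). TRBV19 (41178589 to 41179048) was used by 1.41% against 5.00%, and TRBV14 (41135167 to 41135616) by 1.21% against 4.48%. TRBV5 had no member among its 3086 clonotypes, and TRBV15 none among its 1421. Of the 17 V segments with a member, 5 were above and 11 below the range of the 4 libraries' 1-library clonotypes. In 16 of the 17, public clonotypes had fewer inserted bases than 1-library clonotypes of the same segment; the exception was TRBV23, with 2 members. The lower number of inserted bases was therefore present within segments.

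Lists of related segments were higher as sums, and in the Vβ5 family in both members. The Vβ8 family (TRBV13-1, TRBV13-2 and TRBV13-3) made up 43.0% of public and 28.2% ± 3.31 of 1-library clonotypes (SD, n = 4), and the Vβ5 family (TRBV12-1 and TRBV12-2) 22.4% and 15.9% ± 1.06. TRBV13-2, TRBV29 and TRBV1, the β segments that invariant natural killer T cells use and that conventional T cells use too, made up 40.7% and 23.6%. Within the Vβ8 family, TRBV13-3 stood at 7.99% against 8.97%, below the range of the libraries, and TRBV13-1 at 9.78% against 8.95%, inside it, so TRBV13-2 made up the excess. TRBV29 stood at 6.01% against 7.09%, just below the lowest library (6.09%). No cell type is named from these segments.

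**Figure D4:**
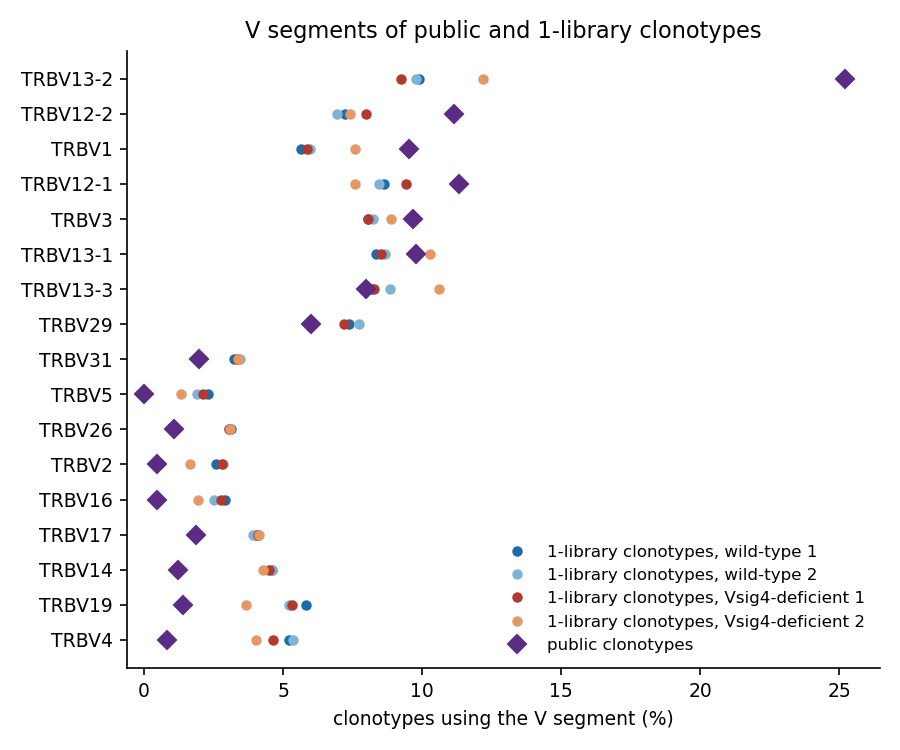
Share of clonotypes (x axis, percent) that use each V segment (y axis), for public clonotypes (diamonds) and for the 1-library clonotypes of each of the 4 libraries (circles). The TRBV13-2 diamond lies at 25.2%, beyond all 4 circles, and the TRBV4 diamond at 0.831% lies below all 4.

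J segment use differed by less. TRBJ2-7 (chromosome 6, 41543810 to 41543856, GRCm38.p6) was used by 24.5% of public clonotypes against 18.1% ± 0.632 of 1-library clonotypes (SD, n = 4), and TRBJ2-5 (41543453 to 41543501) by 15.5% against 11.9% ± 0.102. TRBJ1-4 was used by 2.88% against 6.47%, and TRBJ2-2 by 2.75% against 6.21%. The TRBJ2 cluster as a whole made up 73.3% against 67.5% ± 0.843. Within all 12 J segments public clonotypes had fewer inserted bases than 1-library clonotypes. The most frequent combination was TRBV13-2 with TRBJ2-7, in 99 members (6.33%, against 1.84% of 1-library clonotypes). Public clonotypes were not confined to it, since 17 V and 12 J segments had a member.

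Counts limit how firmly membership can be read. The lowest count was 1 in 527 members (33.7%), so their membership rested on a single count in at least 1 library. The rule repeated with 2 or more counts in every library kept 1037 members (66.3%), 10 or more kept 383, and 100 or more kept 14. The 1037 had 1.82 inserted bases in wild-type 1, 1.88 in wild-type 2, 1.82 in Vsig4-deficient 1 and 1.87 in Vsig4-deficient 2. Clonotypes of 1 library with 2 or more counts had 3.57, 3.55, 3.64 and 3.56. Just outside the main rule, clonotypes of 3 libraries had median counts of 9, 12, 8 and 4 in that order of libraries, where members had 18.5, 19, 13 and 10.

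Listing in a library that had no part in the grouping was read by setting each library aside in turn. Of the 3097 clonotypes listed in all 3 others, 50.5% (95% Wilson interval 48.7% to 52.3%) were listed in wild-type 1, against 20.1% of those in 2 others and 6.65% of those in 1. The corresponding shares were 64.9%, 28.4% and 10.1% in wild-type 2. They were 49.3%, 20.3% and 6.94% in Vsig4-deficient 1 and 66.0%, 31.6% and 10.7% in Vsig4-deficient 2. The libraries with more clonotypes found more, and the order by number of other libraries was the same in all 4.

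The chance of being listed in the library set aside also went down with inserted bases. Clonotypes of the other 3 libraries were grouped by their mean inserted bases there, rounded down. Those with a mean rounded down to 0 were listed in 16.3% of cases in wild-type 1 and 23.5% in wild-type 2. In Vsig4-deficient 1 and Vsig4-deficient 2 the shares were 16.2% and 23.5%. With a mean of 8 or more inserted bases the shares were 3.98%, 5.12%, 4.45% and 6.70% in wild-type 1, wild-type 2, Vsig4-deficient 1 and Vsig4-deficient 2. Each step from 0 to 8 or more was downward in every library. Listing also depended on counts in the other libraries: at 0 in wild-type 1 it was 10.8% with 1 to 9 counts and 47.5% with 100 or more. Within 1 to 9 and within 10 to 99 counts, each step was downward too. At 100 or more counts the shares were lower at the end than at 0 in every library, but not every step was downward. In wild-type 1 the first step there went from 47.5% to 48.3%. These values use no information from the library they were read in.

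**Figure D5:**
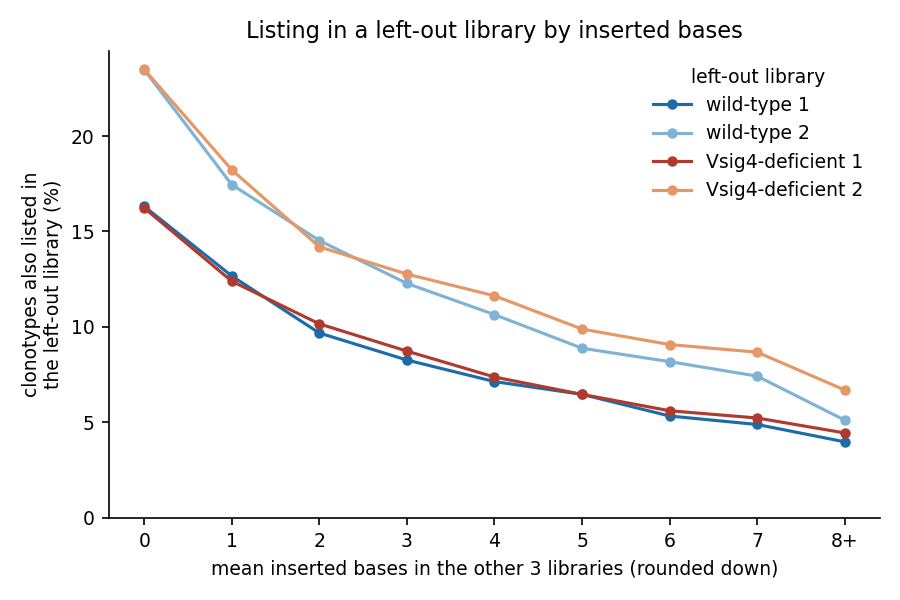
Share of clonotypes (y axis, percent) that were listed in a library set aside, with 1 line per library set aside. Clonotypes of the other 3 libraries are grouped by mean inserted bases, rounded down (x axis). The lines of wild-type 2 and Vsig4-deficient 2 start at 23.5%, those of wild-type 1 and Vsig4-deficient 1 at 16.3% and 16.2%, and all 4 end at 6.70% or less.

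The highest lowest share picked out members that were well represented in every library, at even or uneven levels. Beside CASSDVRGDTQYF and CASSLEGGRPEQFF, the 5 members with the highest lowest share were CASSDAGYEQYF (TRBV13-1, TRBJ2-7), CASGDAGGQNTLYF (TRBV13-2, TRBJ2-4) and the 20-sequence member. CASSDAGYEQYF had 181 counts in wild-type 1, 165 in wild-type 2, 2874 in Vsig4-deficient 1 and 540 in Vsig4-deficient 2, from 8 nucleotide sequences. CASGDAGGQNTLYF had 212, 423, 178 and 217 counts from 11 sequences. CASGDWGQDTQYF (TRBV13-2, TRBJ2-5) and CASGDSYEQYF (TRBV13-2, TRBJ2-7), both with an identical sequence of no inserted base in all 4 libraries, had 248, 204, 157 and 185 counts and 304, 112, 121 and 177 counts. The share of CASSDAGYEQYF was higher in both Vsig4-deficient libraries than in either wild-type library, which edgeR did not call. The highest share of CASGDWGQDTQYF was 1.88 times its lowest.

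Public clonotypes held 16.4% of in-frame counts in wild-type 1, 12.5% in wild-type 2, 33.2% in Vsig4-deficient 1 and 13.6% in Vsig4-deficient 2. The mean difference of 8.92 percentage points (Vsig4-deficient minus wild-type) had a two-sided exact permutation p of 0.667 over the 6 assignments of genotype, whose smallest possible p is 0.333. Vsig4-deficient 1 stood apart: its 10 largest members held 24.3% of its counts, against 8.66%, 4.96% and 7.69% in wild-type 1, wild-type 2 and Vsig4-deficient 2. Without Vsig4-deficient 1 the difference was -0.867 points. Without the 76 members that were among the 50 largest clonotypes of any library, public clonotypes held 6.63%, 5.76%, 4.93% and 4.48% in the same order, a difference of -1.49 points (exact p = 0.333). With entries under 1% of their share elsewhere left out it was 0.491 points, and with entries under 5% left out 0.641. The sign and size of this difference therefore rested on a few large clones.

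A typical member was listed at a lower share in the Vsig4-deficient libraries. The geometric mean share was 0.00181% and 0.00211% in the wild-type and 0.00135% and 0.00093% in the Vsig4-deficient libraries, so the genotypes did not overlap (two-sided exact permutation p = 0.333, the smallest the design allows). The same direction held over all clonotypes tested between genotypes, whose median log2 difference was -0.94 against -0.85 over members, and scaling by the trimmed mean of M-values brought both near 0 (-0.05 and 0.07). Inserted bases differed by 0.0293 between genotypes (exact p = 0.667). Nucleotide sequences per member differed by -0.0409 (exact p = 0.667), which became 0.119 without wild-type 2 and 0.0822 without Vsig4-deficient 1.

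Clonotype by clonotype, no public clonotype passed an adjusted p of 0.05 between genotypes in edgeR's quasi-likelihood test (0 of 1564, against 0% of the 6359 clonotypes tested, those listed in 3 or more libraries; smallest Benjamini-Hochberg adjusted p 1). At an unadjusted p under 0.05 there were 32 members (2.05%), against 2.67% of those tested. The biological coefficient of variation was 1.43, meaning that counts of a clonotype in libraries of the same genotype typically differed more than its own level. Shares did not overlap between genotypes and were higher in the Vsig4-deficient libraries for 112 members (7.16%, against 8.37% of those tested), and lower for 480 (30.7%, against 28.6%). With counts scaled by the trimmed mean of M-values instead, 251 were higher (16.05%, against 15.8%) and 254 lower (16.2%, against 16.8%). The members' shares stood near the background under both scalings.

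DESeq2 called more than edgeR. Of the 756 members to which it gave an adjusted p, 40 were higher in the Vsig4-deficient libraries (5.29%, against 8.38% of the 1551 clonotypes with an adjusted p) and 32 lower (4.23%, against 6.45%). In simulated data of the same size and spread, edgeR recovered 0% of clonotypes changed 16-fold, and at a coefficient of variation of 0.224 it recovered 100%. At the spread of these libraries, changes of that size in single clonotypes were not detectable by edgeR. DESeq2 was not run on the simulated data.

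At the nucleotide level, libraries of the same genotype had more in common. Of the 1564 members, 57.9% had a common nucleotide sequence in the wild-type pair and 60.4% in the Vsig4-deficient pair, while pairs of different genotype had one in 48.2% to 54.2%. The difference of 8.30 percentage points was the largest of the 3 ways to pair the libraries (exact permutation p = 0.333, the smallest possible). With entries under 5% of their share elsewhere left out, it was 5.29 points over 1233 members. Public clones among the 50 largest of a library also had unequal shares elsewhere. For Vsig4-deficient 1 the median share elsewhere was highest in Vsig4-deficient 2, as given above. For wild-type 1 it was 2.08% in wild-type 2, against 0.918% and 0.275% in Vsig4-deficient 1 and 2. For the clones of wild-type 2 it was 1.05% in wild-type 1, against 0.183% and 0.350% in the Vsig4-deficient pair. For Vsig4-deficient 2 it was 0.271% in Vsig4-deficient 1, between the 0.152% of wild-type 1 and the 0.605% of wild-type 2, so the library of the same genotype was highest for 3 of the 4. The part of these clones in the difference between pairs was not tested.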

How the data were processed

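TRB libraries from 4 sorted samples were read from 1 table per library. Per the file headers, each row gives a clone count, V, D and J segments and positions within the CDR3. The deposited counts are whole numbers without normalization; the sources used here do not give the program, or tell reads from molecules. The deposited clone fraction and the deposited quality score were not used for any result. The submitters' processing notes name mm10; segment positions are RefSeq's for GRCm38.p6, where 38 of 38 segments matched by symbol.

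Rows in frame and without a stop codon were grouped by CDR3 amino acids, first V and first J segment. Inserted bases are those between the V, D and J parts. Where no D was assigned, the whole gap counts. Class means use each clonotype's mean over its nucleotide sequences in a library, averaged over 4 libraries; groups of members by number or spread of sequences, or by evenness, use the mean over the distinct sequences of all libraries. Totals ran from 901567 to 1269480 counts per library. Intervals are 95% Wilson intervals.

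Genotypes were compared by two-sided exact permutation over libraries and, for clonotypes in 3 or more libraries, by edgeR 4.0.16 (quasi-likelihood, total-count scaling, Benjamini-Hochberg), with DESeq2 1.42.0 as an alternative. Python 3.11.15, pandas 2.3.3, SciPy 1.17.1 and R 4.3.3 were used. The edgeR test and the functions that computed the alternatives were tested on simulated data. Alternatives were a minimum count, equal depth, limits on low-share entries, joining of near-identical sequences, other scalings and each library left out. Named clonotypes were the 5 with the highest lowest share, the most nucleotide sequences, the most counts, and an identical sequence without inserted bases at the highest lowest share. Named segments were the 5 V and 3 J with the largest differences and those of fixed lists. The members and lists were chosen with earlier results of these data known.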

Additional observations from a re-analysis of the deposited data

How the results depend on the processing

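Membership depended on the rule: 1564 public clonotypes became 1037 with 2 or more counts in every library, 3556 by CDR3 amino acids alone, and 2369 to 3175 when 1 library was left out and listing in the other 3 was required. The lower number of inserted bases (-1.69) kept its direction in all 12 alternatives, at -1.73 with 2 or more counts, -1.75 and -1.77 with entries under 1% and 5% of their share elsewhere left out, -2.05 by the lowest sequence of a clonotype, -2.89 as bases between V and J, -1.75 by the most abundant sequence, and -1.58 to -1.45 with 1 library left out. The length difference (-0.676) was -0.725, -0.697 and -0.739 under the first 3 of these and -0.587 to -0.516 with 1 library left out. Nucleotide sequences per clonotype (0.639 more) came to 0.827 with 2 or more counts and 0.432 to 0.473 with 1 library left out. The share with an identical sequence in every library (25.7%) was 23.035% and 17.9% under the 1% and 5% limits, and 29.97% to 35.3% with 1 library left out. The share of V use that would have to move to match both classes (27.0 points) was 32.97 weighted by counts and 22.8 to 24.2 with 1 library left out; the TRBJ2 difference (5.77 points) was 3.89 to 4.85. Leaving out a library loosens the rule to 3 libraries, which is part of each such change.

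The genotype difference in count share (8.92 points) reversed to -1.49 without the 50 largest clonotypes and ran from -0.867 (without Vsig4-deficient 1) to 18.7. The difference in sequences per member (-0.0409) ran from -0.20045 to 0.119, and reversed to 0.119 without wild-type 2 and 0.0822 without Vsig4-deficient 1. Calls were 72 by DESeq2 and 0 in edgeR, and 0 to 0 with 1 library left out, where the lone library is assumed to vary like the other genotype's; since edgeR recovered 0% of simulated 16-fold changes at this spread, its 0 says nothing about stability. With the replicate number as a block (replicate block) there were 0 calls and 7 members at an unadjusted p under 0.05; deviations of same-numbered libraries correlated at 0.0115, so the numbers are not read as pairs. The limits on low-share entries for pairs of libraries were chosen after seeing the data. With 2 libraries per genotype no exact test could pass 0.05.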

Other observations

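Nucleotide sequences that encode no full receptor were also shared between libraries, less often. Of the 21397 out-of-frame sequences, 12 were listed in all 4 libraries (0.0561%, 95% Wilson interval 0.0321% to 0.0980%), against 419 of 215176 in-frame sequences (0.195%, 0.177% to 0.214%). In 2 libraries the shares were 4.05% and 8.35%. Sequences with a stop codon were listed in all 4 libraries for 0 of 1079. Out-of-frame sequences listed in 1, 2, 3 and 4 libraries had 3.61, 3.63, 2.86 and 2 inserted bases, from 20475, 867, 43 and 12 sequences. In-frame sequences had 3.37, 2.84, 2.12 and 2.21 in the same order. The median count of sequences in 2 libraries was 2 out of frame and 4 in frame. Counts differ between the classes, so the shares are not at matched depth.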
